A study of Mus musculus with 20 samples.

Results

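The nuclear-encoded subunits of oxidative phosphorylation were followed in the livers of fasted and refed mice with wild-type Prox1 or with the K556R form of Prox1 in hepatocytes. They were taken by symbol as all rows of the count table that begin with Nduf followed by a, b, c, s or v, with Sdha to Sdhd, and with all rows that begin with Uqcr, with Cox4 to Cox8 or with Atp5, leaving out the complex I assembly factors (Ndufaf). The rule uses no measured value, and it took 87 of the 29915 rows: 38 of complex I, 4 of complex II, 9 of complex III, 19 of complex IV and 17 of complex V. Of the complex I rows, 7 encode core subunits and 31 accessory ones. The symbols brought in a few rows that are no subunits: Cox4nb is an older name of Emc8, of the endoplasmic reticulum membrane complex, and Atp5s and Atp5sl are older names of Dmac2l and Dmac2. Uqcr is an older symbol of Uqcr11, and both stand as rows of their own. Ndufa4, counted here with complex I by its symbol, is now known as a subunit of complex IV.

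The livers came from male mice on chow under a light and dark cycle of 12 h each. K556R replaces the lysine at which Prox1, a homeodomain corepressor in hepatocytes, is modified by SUMO. Cre induced it in hepatocytes when the mice were 8 weeks old, and the mice were sampled after a further 11 weeks, at Zeitgeber times from 15 to 17. Mice of either genotype were fasted or refed, which makes 4 groups of 5 libraries, of which 14 belonged to batch 1 and 6 to batch 2. The titles name the wild type Ctrl and the mutant Cre, so an effect of Cre and one of K556R cannot be told apart. Batch 2 gave 3 of the K556R refed libraries and 1 of each other group, and libraries are named here by replicate and batch, such as 1_b1.

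Oxidative phosphorylation runs in the inner mitochondrial membrane. Complex I and complex II pass electrons from NADH and succinate to ubiquinone, complex III passes them to cytochrome c and complex IV to oxygen, and complex V makes ATP from the proton gradient. Most subunits are encoded in the nucleus and imported, while a few hydrophobic core subunits are encoded by mitochondrial DNA. In the liver this machinery burns fatty acids during fasting and supports gluconeogenesis, and its genes are textbook targets of the factors NRF1, GABPA, YY1 and the ERR family with their coactivators.

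Promoters are shown first for 3 members on which the results turn: the complex I subunit with the largest called rise after refeeding (Ndufa8), the only called member of complex II (Sdhd) and the complex IV family member called lower in both genotypes (Cox7a2l). Each is the 250 bases before the RefSeq start on GRCm38.p6, on the minus strand of chr2:36049339-36049588 (Ndufa8), chr9:50603850-50604099 (Sdhd) and chr17:83514334-83514583 (Cox7a2l), printed 5′ to 3′ along the gene. Capitals mark a match to a searched motif.
Ndufa8: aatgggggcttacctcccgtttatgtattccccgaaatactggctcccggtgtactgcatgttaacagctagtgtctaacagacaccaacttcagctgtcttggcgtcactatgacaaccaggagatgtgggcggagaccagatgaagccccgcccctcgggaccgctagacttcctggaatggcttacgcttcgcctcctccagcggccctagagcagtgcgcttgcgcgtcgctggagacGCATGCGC
Sdhd: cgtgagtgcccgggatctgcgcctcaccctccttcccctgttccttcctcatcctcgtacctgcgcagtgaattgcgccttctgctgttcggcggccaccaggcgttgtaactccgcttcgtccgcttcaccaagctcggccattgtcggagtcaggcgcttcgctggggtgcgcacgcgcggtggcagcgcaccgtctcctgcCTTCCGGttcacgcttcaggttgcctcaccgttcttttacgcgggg
Cox7a2l: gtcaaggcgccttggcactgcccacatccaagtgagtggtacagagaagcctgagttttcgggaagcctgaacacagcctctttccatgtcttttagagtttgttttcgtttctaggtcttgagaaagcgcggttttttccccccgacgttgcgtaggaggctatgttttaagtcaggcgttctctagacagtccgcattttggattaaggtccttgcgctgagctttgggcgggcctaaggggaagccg
The motifs, searched on both strands, were GCATGCGC for NRF1, CCGGAAG for the ETS family that holds GABPA, AAGATGGC for YY1 and TCAAGGTCA for the ERR family, and none of the 4 is contained in another. RefSeq gave promoters for 68 of the 83 symbols of subunits. The NRF1 motif was found in 8 of these 68 (11.8%), against 2.56% of all 27018 genes with a promoter, and in Ndufa8 it filled bases 8 to 1 before the start. The ETS motif was found in 12 (17.6%), against 7.83% of all genes, and lies on the opposite strand in Sdhd. The YY1 and ERR motifs were found in 1 member each (1.47%), against 1.82% and 0.422% of all genes. The median GC content of the windows was 56% for the subunits and 52.4% over all promoters. The part of GC content in these shares was not tested. The Cox7a2l window held none of the 4. This window follows the RefSeq start and lies inside the longer GENCODE gene, so the sequence before the GENCODE 5′ end was not searched. A match describes letters in these windows and is not evidence of binding.

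The mature c subunit of complex V shows a different feature of the family, 3 genes for 1 protein. Shown are the last 120 coding bases of Atp5g1 (chr11:96068852-96075670), Atp5g2 (chr15:102662864-102672352) and Atp5g3 (chr2:73908447-73911326), all on the minus strand of GRCm38 with GENCODE M21 models, and capitals mark the 31 positions at which the genes are not all alike.
Atp5g1: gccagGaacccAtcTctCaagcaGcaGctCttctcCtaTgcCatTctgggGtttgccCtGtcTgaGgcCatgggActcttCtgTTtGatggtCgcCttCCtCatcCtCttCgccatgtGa
Atp5g2: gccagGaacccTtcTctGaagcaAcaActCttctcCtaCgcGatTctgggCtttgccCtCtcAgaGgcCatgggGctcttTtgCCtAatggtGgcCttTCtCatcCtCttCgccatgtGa
Atp5g3: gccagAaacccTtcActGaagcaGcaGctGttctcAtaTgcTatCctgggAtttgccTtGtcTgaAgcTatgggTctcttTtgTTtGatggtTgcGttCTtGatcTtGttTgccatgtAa
The last 78 codons encode the same residues in all 3 genes. Over the last 237 coding bases the nucleotide identity was 84.8% between Atp5g1 and Atp5g2, 78.5% between Atp5g1 and Atp5g3, and 77.2% between Atp5g2 and Atp5g3. The longest identical stretch within these bases was 21 bases, so a read longer than that meets a differing base there.

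The libraries held 33746054 to 50647297 counts. Levels are given as CPM on the TMM scale, that is, counts relative to the TMM-adjusted size of the library. Summed hepatocyte markers reached 115725 to 166362 CPM in every library, and skeletal muscle markers 0.3 to 0.8 CPM, with Ckm and Myh2 listed at 0. A listed 0 is not read as absence here, since Ppargc1a, which liver expresses, is also listed at 0 in all 20 libraries. Prox1 itself, whose gene-level count does not show the K556R base, was at 120.7 to 223.2 CPM in wild type fasted and 85.0 to 125.8 CPM in K556R fasted livers, and at 93.3 to 132.9 and 57.7 to 89.4 CPM in the refed ones. The gluconeogenic gene Pck1 was at 4871.2 CPM or more in all fasted and 2393.3 CPM or less in all refed libraries. K556R refed 1_b1 and K556R fasted 1_b1 stood apart from the rest, with the highest summed lymphocyte markers (7.1 CPM in each), and K556R refed 1_b1 also had the highest proliferation markers (67.8 CPM, the others at most 37.1). Results that rest on these libraries are given with and without them.

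The members passed the low-count filter in 81 of 87 cases. The other 6 were all in complex IV: Cox4nb, Cox7b2 and Cox8c had a count of 0 in every library, and the lung isoform Cox4i2 and the heart and muscle isoforms Cox6a2 and Cox8b stayed near 0. All members together took 1.07% to 1.28% of all counts. The share was 1.126% ± 0.011 (SD, n = 5) in wild type fasted and 1.238% ± 0.026 in wild type refed livers, without overlap, and 1.117% ± 0.039 and 1.188% ± 0.045 in the K556R groups, which overlapped. On the TMM scale the summed levels overlapped in both genotypes: 11697.7 ± 560 and 11954.1 ± 344 CPM in wild type fasted and refed livers, and 11665.1 ± 412 and 11378.5 ± 838 CPM in K556R fasted and refed livers.

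Refeeding left the structural subunits close to their fasted levels while 45.1% of all genes tested changed in wild type livers. In wild type livers 7 of the 81 tested members rose after refeeding and 2 fell (edgeR quasi-likelihood test, adjusted p under 0.05 over 13894 genes), against 20.9% of all genes called higher and 24.2% called lower. The median log2 change was 0.068 over the members and -0.012 over all genes, and 64 of the 81 had a positive estimate. In K556R livers 1 member rose and 4 fell, against 19.6% and 20.3% of all genes. The median there was 0.0027 against 0.0069 over all genes, with 42 positive and 39 negative estimates. The same direction was called in both genotypes for 3 members (Ndufa8, Cox7a2l and Atp5sl), and 70 were called in neither. In bulk liver, fewer cells of a type and less RNA per cell cannot be told apart.

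**Figure D1:**
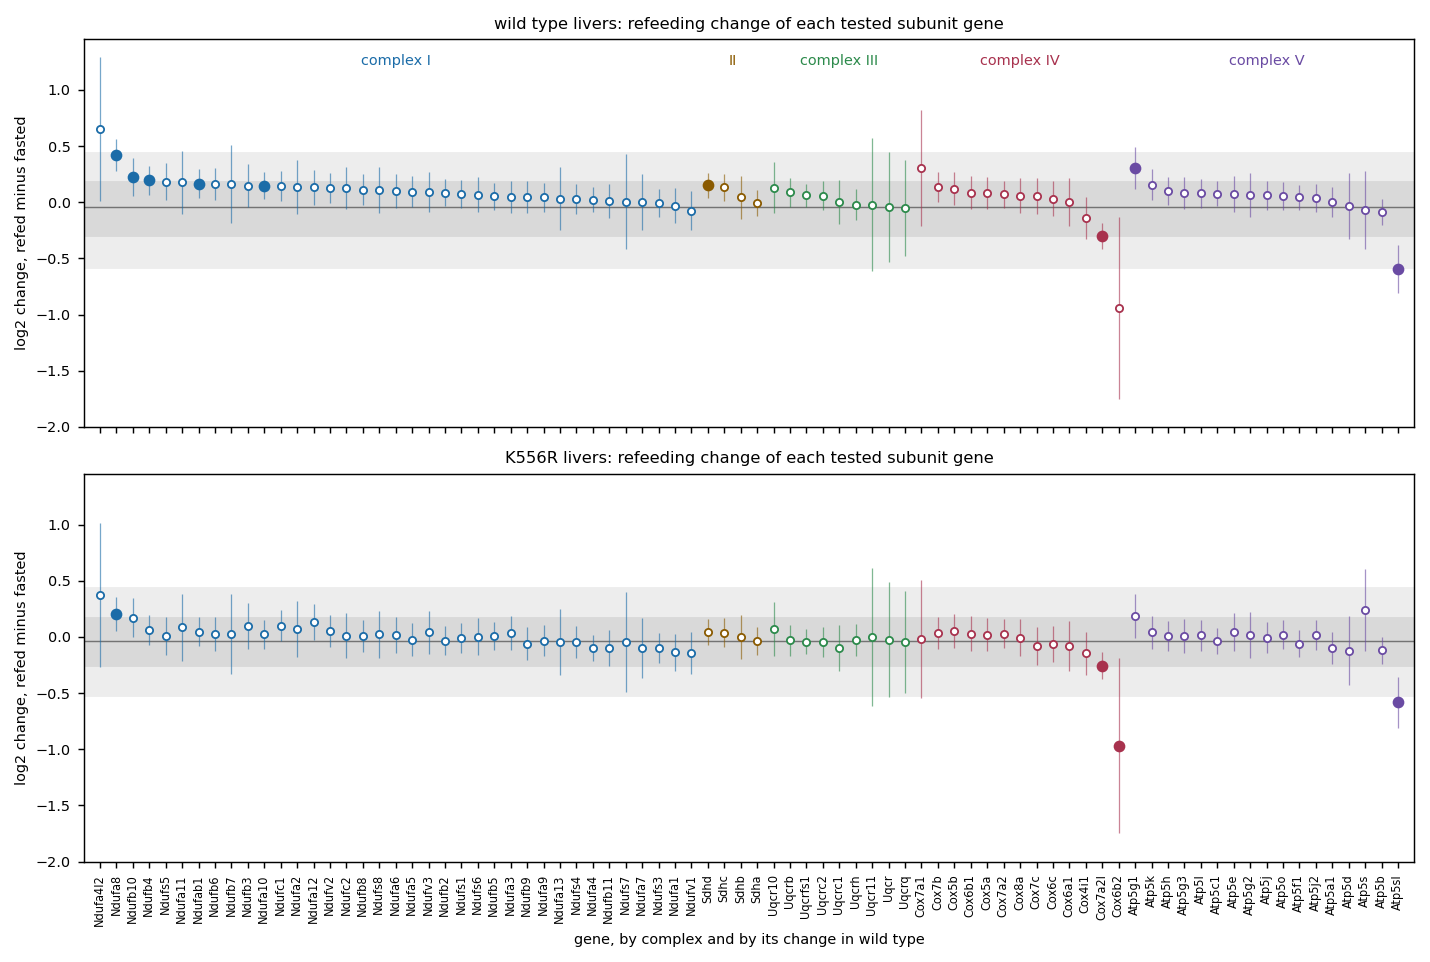
Log2 change from fasted to refed (vertical axis) of 80 of the 81 tested members, by complex, in wild type (upper panel) and K556R livers (lower panel); bars are 95% intervals, filled points have an adjusted p under 0.05, and the grey bands and line give the middle 80% and 50% and the median of all genes of at least 10 CPM. Most members lie within 0.25 of 0, and Atp5sl lies lowest among the members of at least 10 CPM in both panels.

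The intervals give the size of change that the spread among these libraries leaves under TMM scaling. They hold no uncertainty of the scaling itself, so the counts below apply to TMM alone. Of the 76 members with a mean of at least 10 CPM, 72 (94.7%) had a wild-type estimate within 0.25 log2 units of 0, against 51.4% of 7202 genes of that level, and in K556R livers 74 (97.4%) did, against 55.2%. The 95% interval lay within a rise by 25% and the matching fall for 60 of the 76 (78.9%) in wild type and 61 (80.3%) in K556R livers, against 32.8% and 34.5% of such genes.

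The wild-type median was positive under all 4 scalings tried, and its size differed between them. Scaling by library totals alone, an alternative chosen after the data were seen, raised the median of all genes by 0.10 in wild type and 0.13 in K556R livers. It gave 77 positive members and a median of 0.17 in wild type, and 73 positive members and a median of 0.13 in K556R livers. Under it the share of higher calls among all called genes went from 46.4% to 62.0% in wild type and from 49.2% to 70.3% in K556R livers. Upper-quartile scaling gave 74 and 61 positive members, and higher shares of 57.0% and 58.3%. In wild type livers a larger share of the members than of all genes was called higher under library totals and upper-quartile scaling, unlike under TMM. Relative to the median of all genes, the members' median lay 0.080 higher in wild type under TMM and 0.080 to 0.081 higher under the 3 other scalings, and 0.0041 lower in K556R livers under TMM and 0.0049 to 0.0096 lower under the others. A scaling shifts all genes by nearly the same amount. The likeness of these differences was thus nearly fixed in advance and is no support for them.

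Single libraries moved these counts. Without wild type fasted 4_b1, 24 members were called higher in wild type, 70 of 81 were positive and the median was 0.13. Of all genes, 2986 of 14013 were called higher in wild type in that fit, a smaller share than of the members. This library was the highest of its group by mean deviation on the TMM scale in complexes I, II, IV and V. The count of wild-type members called higher was 15 without K556R refed 2_b1, 11 without K556R refed 1_b1, 4 without wild type fasted 2_b1, 3_b1 or 1_b2, and 3 without wild type refed 1_b1 or 3_b1. In K556R livers the median was 0.074 with 60 positive members and 5 called higher without K556R refed 1_b1, and -0.036 with 22 positive members and none called higher without K556R refed 2_b1. None was called higher there without K556R fasted 2_b1 or 3_b1 or K556R refed 1_b2 either. Within batch 1 alone the medians were 0.049 in wild type and -0.0067 in K556R livers, and within batch 2 alone 0.12 and -0.034.

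Complex I, which supplies 38 of the 81 tested members, held 5 of the 7 rises in wild type livers. None of its members fell there, the 5 are 13.2% of its members against 20.9% of all genes called higher, and 34 had a positive estimate with a median of 0.098. All 5 were accessory subunits, which surround the catalytic core: the 31 accessory members had 30 positive estimates and a median of 0.11, and none of the 7 core members was called, with 4 positive estimates and a median of 0.0049. The difference between core and accessory members was not tested. In K556R livers 1 accessory member rose.

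Ndufa8, an accessory subunit with paired cysteine motifs, changed most among them. It was at 54.4, 55.7, 54.2, 60.3 and 58.8 CPM in the wild type fasted and 79.5, 75.6, 72.3, 75.6 and 77.0 CPM in the wild type refed livers. The groups did not overlap, and the rise was 0.42 on the log2 scale (SE 0.068, 1.34-fold, edgeR adjusted p = 3.97e-05). In K556R livers it was at 58.0, 55.6, 56.5, 64.4 and 65.5 CPM fasted and 56.8, 76.5, 77.0, 71.1 and 74.7 CPM refed. There 4 refed libraries lay above all fasted ones and 1_b1 among them, and the rise was 0.20 (SE 0.072, 1.15-fold, adjusted p = 0.0288). The change in K556R minus that in wild type was -0.22 (SE 0.099) and was not called (unadjusted p = 0.0372, edgeR adjusted p = 1.00). The gene lies at chr2:36036326-36049406 on the minus strand in GENCODE. The NRF1 motif shown above abuts its RefSeq start and lies inside the longer GENCODE gene. The wild-type call was lost in batch 2 alone, with 1 library per wild-type group (0.40, adjusted p = 0.0662). The K556R call was lost in each batch alone (0.19 in both), with the replicate block (0.22, adjusted p = 0.0644) and without K556R fasted 2_b1 (0.19), 3_b1 (0.19), K556R refed 1_b2 (0.19) or 2_b1 (0.15).

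The other 4 rises in complex I were smaller than that of Ndufa8. Ndufb10 (chr17:24722060-24724478, minus strand), a membrane-arm subunit, was at 79.3, 73.8, 72.1, 83.1 and 81.6 CPM in wild type fasted and 96.3, 85.7, 92.7, 85.8 and 95.5 CPM in wild type refed livers. The groups did not overlap, and the rise was 0.23 on the log2 scale (SE 0.080, adjusted p = 0.0261). In K556R livers its estimate was 0.17 (adjusted p = 0.112). Ndufb4, also of the membrane arm, went from 37.7 ± 3.31 to 43.1 ± 1.41 CPM (SD, n = 5) in wild type livers, with overlap of single libraries and an adjusted p of 0.0121 by edgeR. Its K556R estimate was 0.065 (adjusted p = 0.452). Ndufab1, the mitochondrial acyl carrier protein, went from 47.9 ± 3.63 to 53.8 ± 3.75 CPM (edgeR adjusted p = 0.0289), and Ndufa10 from 115 ± 5.46 to 128 ± 2.37 CPM (edgeR adjusted p = 0.0425). Their K556R estimates were 0.047 and 0.023 on the log2 scale, and neither passed the test. These calls rested on single libraries: that of Ndufb10 was lost without wild type fasted 2_b1 (0.21), 3_b1 (0.20) or 1_b2 (0.22) or wild type refed 1_b1 (0.20) or 3_b1 (0.22), and that of Ndufb4 without wild type fasted 1_b2 (0.15). That of Ndufab1 was lost without wild type fasted 1_b1 (0.16), 2_b1 (0.15) or 1_b2 (0.12) or wild type refed 1_b1 (0.16), 3_b1 (0.16) or 1_b2 (0.14). That of Ndufa10 was lost in 9 of the 20 fits that leave out 1 library, namely without wild type fasted 1_b1, 2_b1, 3_b1 or 1_b2, any of the 4 wild type refed libraries of batch 1, or K556R refed 2_b2, with estimates from 0.12 to 0.15.

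**Figure D2:**
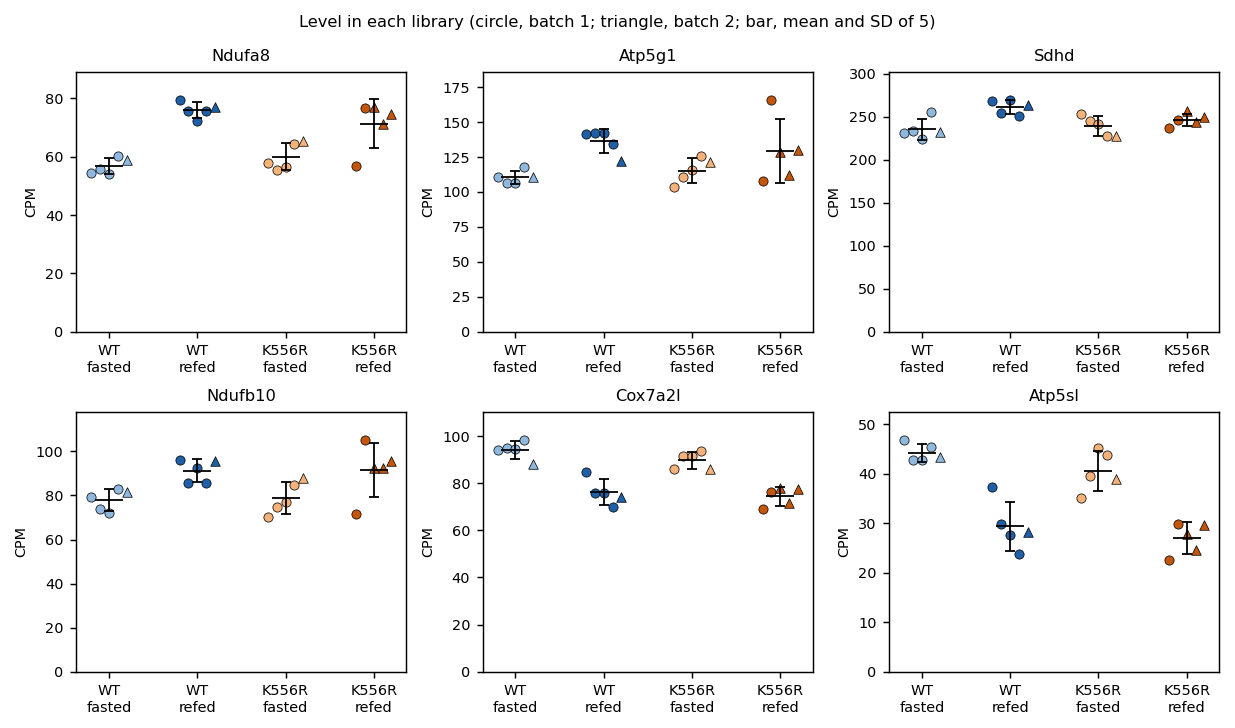
Level in CPM (vertical axes, from 0) of 6 members in each of the 20 libraries by group; circles are batch 1, triangles batch 2, and bars give the mean and SD of 5. Ndufa8 of wild type refed livers lies above all wild type fasted ones, Cox7a2l and Atp5sl of refed livers lie below all fasted ones of their genotype, and K556R refed 1_b1 of Ndufa8 lies at 56.8.

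The core subunits of complex I carry the flavin, the iron-sulfur clusters and the ubiquinone site. The wild-type estimates of the flavin subunit Ndufv1 and of the iron-sulfur subunits Ndufv2, Ndufs1 and Ndufs8 were -0.074, 0.13, 0.075 and 0.11 on the log2 scale, and none of these passed in either genotype. Ndufs1 was at 167 ± 10.6 and 176 ± 5.54 CPM (SD, n = 5) in wild type fasted and refed livers and at 159 ± 12.5 and 160.0 ± 9.13 CPM in K556R livers, with overlap in both genotypes.

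Complex II, which is also the succinate dehydrogenase of the citric acid cycle, gave 1 rise among its 4 members in wild type livers. Sdhd (chr9:50596357-50603812, minus strand), a membrane anchor at the ubiquinone site, was at 231.2, 232.9, 223.8, 255.8 and 232.8 CPM in wild type fasted and 267.9, 254.5, 269.7, 251.4 and 263.5 CPM in wild type refed livers. The groups overlapped only through wild type fasted 4_b1, and the log2 change was 0.15 (SE 0.052, adjusted p = 0.0232). The levels in K556R livers were 253.6, 245.6, 241.9, 228.1 and 227.2 CPM fasted and 237.1, 246.6, 256.2, 243.8 and 249.6 CPM refed, and the estimate there was 0.046 (adjusted p = 0.546). The wild-type call was lost in each batch alone (0.15 and 0.19), with the replicate block (0.15, adjusted p = 0.0645) and without wild type fasted 3_b1 (0.13) or wild type refed 1_b1 (0.14) or 3_b1 (0.14). The other anchor, Sdhc, had an estimate of 0.13 that did not pass (adjusted p = 0.0768). The catalytic flavoprotein Sdha was at 631 ± 20.6 CPM fasted and 628 ± 7.04 CPM refed in wild type livers (log2 change -0.0058), and the iron-sulfur subunit Sdhb had an estimate of 0.043.

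None of the 9 members of complex III was called in either genotype. Its catalytic Rieske protein Uqcrfs1 was at 184 ± 10.3 and 192 ± 6.47 CPM in wild type fasted and refed livers, and at 189 ± 5.26 and 185 ± 7.78 CPM in K556R livers. The wild-type estimates ran from -0.048 to 0.13 on the log2 scale. The core proteins Uqcrc1 and Uqcrc2 had estimates of 0.00083 and 0.059.

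Complex IV gave no rise. Of its 13 tested members, 1 fell in wild type and 2 in K556R livers, and neither is among the usual liver subunits of the monomeric enzyme. Cox7a2l (chr17:83501918-83517330, minus strand), a Cox7a relative that joins complexes III and IV in supercomplexes, was at 94.1, 94.8, 94.6, 98.5 and 88.1 CPM in wild type fasted and 84.9, 76.1, 75.8, 70.1 and 74.2 CPM in wild type refed livers. It was at 86.0, 91.4, 91.6, 93.9 and 85.9 CPM in K556R fasted and 68.9, 76.3, 78.0, 71.8 and 77.7 CPM in K556R refed livers. Neither pair of groups overlapped, and Cox7a2l fell by 0.30 on the log2 scale in wild type (SE 0.056, 0.810-fold, adjusted p = 0.000173) and by 0.25 in K556R livers (SE 0.059, 0.838-fold, adjusted p = 0.00184). Both calls were lost in batch 2 alone (-0.24 and -0.17), and that in K556R livers under library totals (-0.13, adjusted p = 0.0514).

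The Cox7a paralogs were compared per length, as the share of each in the summed CPM per kb of transcript. Cox7a2l made up 28.6% ± 1.36 (SD, n = 5) in wild type fasted and 23.5% ± 0.936 in wild type refed livers, and 27.9% ± 1.84 and 24.6% ± 1.88 in K556R livers. The ranges did not overlap in wild type (26.9% to 30.2% against 22.5% to 24.8%) and did in K556R livers. Cox7a2, the common form of the subunit, held most of the rest, with a log2 change of 0.070 in wild type livers (adjusted p = 0.362). The heart and muscle form Cox7a1 held at most 1.48% in any library.

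The second call in complex IV, the testis isoform Cox6b2, rests on few counts. It was at 0.322, 0.311, 0.258, 0.263 and 0.314 CPM in K556R fasted and 0.223, 0.132, 0.142, 0.0191 and 0.175 CPM in K556R refed livers. The log2 change was -0.97 (SE 0.375, adjusted p = 0.0461) in K556R and -0.94 (adjusted p = 0.0541) in wild type livers, and 22 of 32 alternatives lost the K556R call, 15 of them fits that leave out 1 library. The liver forms made up nearly all of each isoform set per length in all 20 libraries: Cox6b1 held at least 99.66% of Cox6b, Cox8a at least 99.87% of Cox8, Cox4i1 at least 99.9557% of Cox4i and Cox6a1 at least 99.96% of Cox6a. Ndufa4 held at least 99.7% against its hypoxia-induced relative Ndufa4l2. Cox4i1, the regulatory subunit that binds ATP, had estimates of -0.14 in wild type and -0.15 in K556R livers, and neither passed (adjusted p = 0.214 and 0.227).

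Among the rows counted with complex V, the rise came from a subunit and the fall from Atp5sl, which is no subunit. None of the 5 members of the catalytic F1 head was called in either genotype: the wild-type estimates were -0.00043 for Atp5a1, -0.089 for Atp5b, 0.078 for Atp5c1, -0.037 for Atp5d and 0.076 for Atp5e. Of the 10 members of the membrane part and stalk, 1 rose in wild type livers, and all 10 had positive estimates, from 0.037 upward with a median of 0.073.

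Atp5g1 was at 110.5, 106.2, 106.4, 117.9 and 110.9 CPM in wild type fasted and 141.2, 142.2, 142.0, 134.3 and 122.2 CPM in wild type refed livers. The groups did not overlap, and the rise was 0.30 on the log2 scale (SE 0.090, 1.23-fold, adjusted p = 0.00893). In K556R livers it was at 103.4, 110.5, 115.5, 125.6 and 121.4 CPM fasted and 107.8, 166.0, 128.8, 112.1 and 130.4 CPM refed, which overlapped (estimate 0.19, SE 0.094, adjusted p = 0.123). The other genes of the c subunit, Atp5g2 and Atp5g3, had wild-type estimates of 0.065 (adjusted p = 0.612) and 0.085 (adjusted p = 0.338). Per length, Atp5g1 made up 23.9% ± 0.854 (SD, n = 5) of the c-subunit transcripts in wild type fasted and 26.8% ± 1.65 in wild type refed livers, with overlapping ranges. Atp5g3 was the main source in every group, at 60.4% ± 1.64 and 58.3% ± 2.19 in the same livers. The wild-type call of Atp5g1 was lost in batch 2 alone (0.15, adjusted p = 0.553).

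Atp5sl (chr7:25619414-25625551, plus strand) had the largest change of all members of at least 10 CPM. This gene, now Dmac2, encodes an assembly factor for the membrane arm of complex I and no part of complex V. It was at 46.8, 42.8, 42.8, 45.3 and 43.4 CPM in wild type fasted and 37.4, 29.8, 27.7, 23.8 and 28.1 CPM in wild type refed livers. In K556R livers it was at 35.1, 39.6, 45.3, 43.8 and 38.9 CPM fasted and 22.5, 29.9, 27.8, 24.6 and 29.7 CPM refed. All refed libraries lay below all fasted ones of the same genotype, and Atp5sl fell by 0.59 in wild type (SE 0.102, 0.664-fold, adjusted p = 8.55e-05) and by 0.58 in K556R livers (SE 0.108, adjusted p = 0.000227). Both calls were kept in all 33 alternatives.

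**Figure D3:**
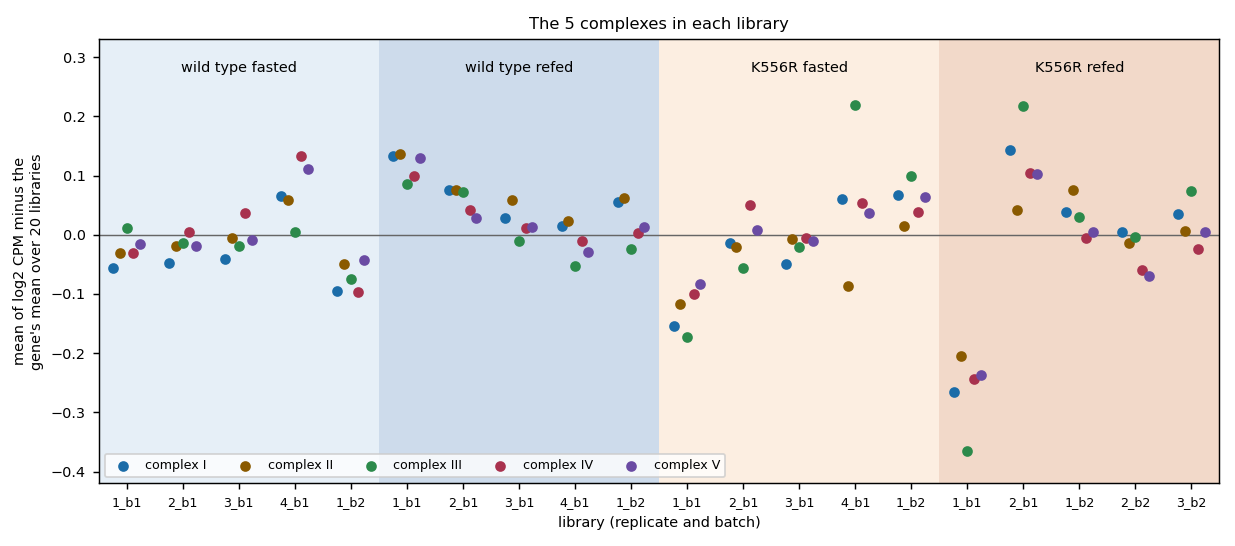
Mean over the members of at least 10 CPM of a complex of the log2 CPM deviation from each member's own average (vertical axis), for each of the 20 libraries by group, with 1 colour per complex. K556R refed 1_b1 is the lowest library in all 5 complexes, at -0.21 to -0.36.

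No member passed the test between the genotypes. In fasted livers none of the 81 was called (edgeR), with 42 positive and 39 negative estimates, a median log2 difference of 0.0015 (-0.0064 with library totals) and an unadjusted p under 0.05 for 0 members. Of all genes 0% were called, and 8.18% had an unadjusted p under 0.05. In refed livers 0 members were called, 9 had an unadjusted p under 0.05, and 67 estimates were negative with a median of -0.071. Of all genes 0% were called there, 4.99% had an unadjusted p under 0.05 and 45.0% had a negative estimate. On average over both feeding states 0 were called and 7 had an unadjusted p under 0.05 (median -0.032), against 0.0288% of all genes called and 9.27% at an unadjusted p under 0.05. For the interaction 0 were called, 1 had an unadjusted p under 0.05 and 74 estimates were negative (median -0.079), with 0% of all genes called, 3.98% at an unadjusted p under 0.05 and 44.8% negative. DESeq2 and limma also called 0 members in each of these comparisons. At an unadjusted p under 0.05, DESeq2 had 0 in fasted, 17 in refed livers, 9 on average and 2 for the interaction, and limma 0, 5, 2 and 1.

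The low refed estimates moved with single libraries, in both directions. K556R refed 1_b1 was the lowest of all 20 libraries in each complex, with a mean log2 deviation of -0.27 in complex I, -0.21 in complex II, -0.36 in complex III and -0.24 in complexes IV and V, and 75 of 76 members of at least 10 CPM lay below their own mean there. As a share of the counts of that library, before TMM scaling, the members took 1.13%, the lowest K556R refed share but within the 1.07% to 1.16% of the K556R fasted libraries. Without the pair of libraries that stand apart, the refed difference between genotypes had 37 positive and 44 negative estimates with a median of -0.0050, and the interaction a median of -0.029. The part of the proliferation and lymphocyte markers of K556R refed 1_b1 in this was not tested. Without K556R refed 1_b1 alone, 45 of 81 refed estimates were negative, with a median of -0.0093 and 2 at an unadjusted edgeR p under 0.05. Without K556R refed 2_b1 alone, 79 were negative with a median of -0.14. In that fit 27 members had an unadjusted edgeR p under 0.05, against 1257 of 13998 genes. Within batch 1 and batch 2 alone, the median refed difference was -0.094 and -0.039, and the fasted one -0.029 and 0.13.

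The members with the lowest p between genotypes show the size of these differences. In refed livers they were Ndufa5 (-0.18, unadjusted p = 0.0173), Ndufs1 (-0.17, unadjusted p = 0.018) and Uqcrb (-0.17, SE 0.065, unadjusted p = 0.0192), each with an edgeR adjusted p of 0.965. Uqcrb, a subunit of complex III near its ubiquinone site, was at 149, 140, 148, 151 and 153 CPM in wild type refed and 122, 138, 139, 138 and 131 CPM in K556R refed livers. These groups did not overlap, as for Uqcrh and Cox7b, while 78 members overlapped. The margins were narrow. For Uqcrb the lowest wild type refed level was 140.4 CPM and the highest K556R refed level 139.1 CPM. For Uqcrh these were 174.8 and 173.6 CPM, and for Cox7b 168.416 and 168.411 CPM. Of all genes tested, 0.425% lay lower and 0.194% higher in K556R refed livers without overlap. In fasted livers Ndufb3 (-0.16), Ndufc2 (0.14) and Ndufb6 (0.092) came first, with edgeR adjusted p values of 0.737 or more, and all 81 members overlapped, while 0.547% of all genes lay lower and 0.367% higher in K556R fasted livers without overlap. On average over feeding, Ndufs1, Ndufb3 and Ndufa5 came first, and for the interaction Ndufa8, Ndufa4 (-0.12) and Ndufs5 (-0.17).

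The spread between replicates was not even over the members. Among the 75 subunits of at least 10 CPM, 8 had an SD of log2 CPM about the group means above 0.2, a limit set after the values were seen: Uqcr11 (0.45), Uqcrq, Ndufs7, Ndufb7, Atp5d, Ndufa11, Ndufa13 and Ndufa7 (0.203). The other 67 had a median of 0.0983 and at most 0.191. These 8 moved together: all had their lowest level of the 20 libraries in K556R refed 1_b1 and their next lowest in K556R fasted 1_b1, and all had their 2 highest levels in K556R fasted 4_b1 and K556R refed 2_b1. Uqcr11, for example, was at 8.85 CPM in K556R refed 1_b1 and at 31.3 CPM in K556R fasted 4_b1. In K556R fasted 4_b1 the 8 lay 0.56 above their means and the other 67 at -0.00056. In K556R refed 2_b1 these values were 0.49 and 0.094, in K556R refed 1_b1 -0.63 and -0.22, and in K556R fasted 1_b1 -0.35 and -0.11. Both ends of the range are thus K556R libraries, fasted and refed. Larger deviations of the 8 than of the other 67 follow from their choice by spread over these same libraries. The GC content of the principal transcript was 55.3% to 61.1% for the 8 and 39.9% to 58.8% for the rest, of which 13 lay above 55.3%. Across the 75 genes, which share libraries and are not independent, SD and GC content had a Pearson r of 0.609 and a Spearman rho of 0.651. The part of GC content in the spread was not tested. None of the 8 was called in any comparison.

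**Figure D4:**
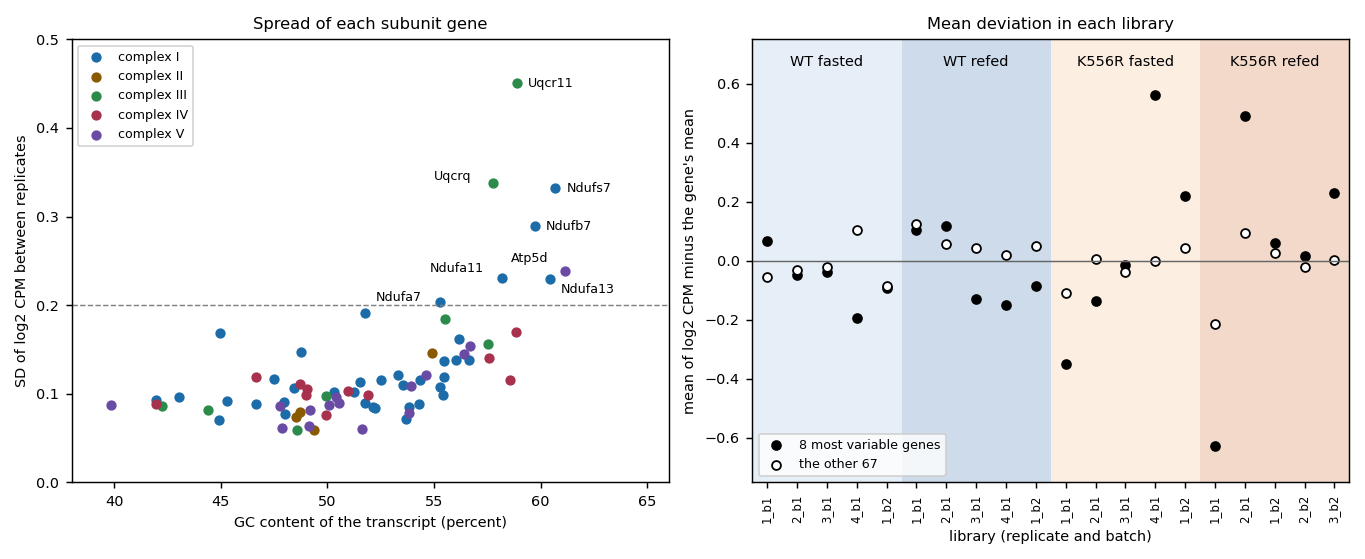
Left, SD of log2 CPM between replicates after group means (vertical axis) against GC content of the transcript in percent (horizontal axis) for 75 subunit genes, coloured by complex, with a dashed line at 0.2. Right, mean log2 deviation in each library of the 8 genes above that line (filled) and of the other 67 (open): the filled points reach 0.56 and -0.63 while the open ones lie between -0.22 and 0.12.

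Per length, levels differed widely within a complex. In complex I, with Ndufa4 counted there by its symbol, they ran from 32.0 CPM per kb for Ndufv3 to 580 for Ndufa4, with a median of 74.8. Counted with complex IV, of which it is now known as a subunit, Ndufa4 would be the highest member there. In complex II they ran from 52.4 for Sdhc to 212 for Sdha, in complex III from 35.8 for Uqcr11 to 326 for Uqcrh, in complex IV from 77.7 for Cox7a2l to 381 for Cox4i1 and in complex V from 125 for Atp5g2 to 678 for the catalytic subunit Atp5b, over subunits of at least 10 CPM.

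Genes that serve these complexes are given for comparison. Lists of them were chosen with earlier results of these data known, and the differences between lists were not tested. Of 45 assembly factors, which build the complexes, 24 rose and 2 fell in wild type livers (median 0.22) and 21 rose and 2 fell in K556R livers (median 0.19). Examples in wild type livers are Acad9 (0.52, edgeR adjusted p = 1.1e-06), which acts in complex I assembly, Cox15 (0.51), which makes heme a, and Bcs1l (0.55), which inserts the Rieske protein. Of 71 tested subunits of the mitochondrial ribosome, 42 rose and 1 fell in wild type (median 0.22) and 30 rose and 1 fell in K556R livers (median 0.15). Of all genes, 20.9% were called higher and 24.2% lower in wild type, and 19.6% and 20.3% in K556R livers. The counts of both lists depended on the processing. With library totals 33 and 30 assembly factors and 59 and 55 ribosomal subunits were called higher in wild type and K556R livers. With upper-quartile scaling these counts were 30, 27, 56 and 44. Of all 13894 genes, 3973 and 4167 were called higher with library totals, and 3645 and 3277 with upper-quartile scaling. In batch 1 alone the counts of the lists were 21, 15, 34 and 19, against 2526 and 2033 of 14267 genes. In batch 2 alone, with 1 library per wild-type group, they were 1, 9, 3 and 5, against 3.90% of all genes called higher in wild type and 9.495% in K556R livers. Mrps27 had log2 changes of 1.06 and 1.01, and Mrpl22 of 0.63 and 0.56.

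Of 20 tested regulators of mitochondrial biogenesis, none rose and 10 fell in wild type livers (median -0.26), against 24.2% of all genes called lower. In K556R livers 2 rose and 8 fell (median -0.20), against 19.6% and 20.3% of all genes. These counts are under TMM, and those under other scalings are not given here. Of all 13894 genes, 3359 and 2815 were called lower in wild type and K556R livers under TMM. With library totals these were 2430 and 1757. The coactivator Ppargc1b fell by 1.42 and 1.29 on the log2 scale, Yy1 by 0.64 and 0.66, the mitochondrial DNA polymerase Polg by 0.55 and 0.42, and Gabpa, an ETS factor, by 0.47 and 0.41. Of 14 enzymes of the citric acid cycle, 2 rose and 3 fell in wild type and 1 rose and 3 fell in K556R livers. In wild type these are 14.3% and 21.4%, against 20.9% and 24.2% of all genes, so the counts lie near or below the background. Among the called enzymes, citrate synthase Cs rose by 0.60 and 0.32, Ogdh fell by 0.50 and 0.40 and Fh1 by 0.61 and 0.46. Of 8 genes listed as electron carriers and the rest, 1 rose and none fell in wild type livers (12.5%, against 20.9% of all genes called higher). In K556R livers none rose and 1 fell (12.5%, against 20.3% called lower). The wild-type rise was that of cytochrome c (Cycs), the carrier between complexes III and IV, by 0.31 (edgeR adjusted p = 0.000782). Its estimate in K556R livers was 0.18 (edgeR adjusted p = 0.052), so the fall there was that of another gene. Of the subunits encoded by mitochondrial DNA, the table lists mt-Cytb and mt-Nd4, with wild-type estimates of 0.085 and -0.021, neither called. None of these genes was called in a genotype comparison (edgeR).

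**Figure D5:**
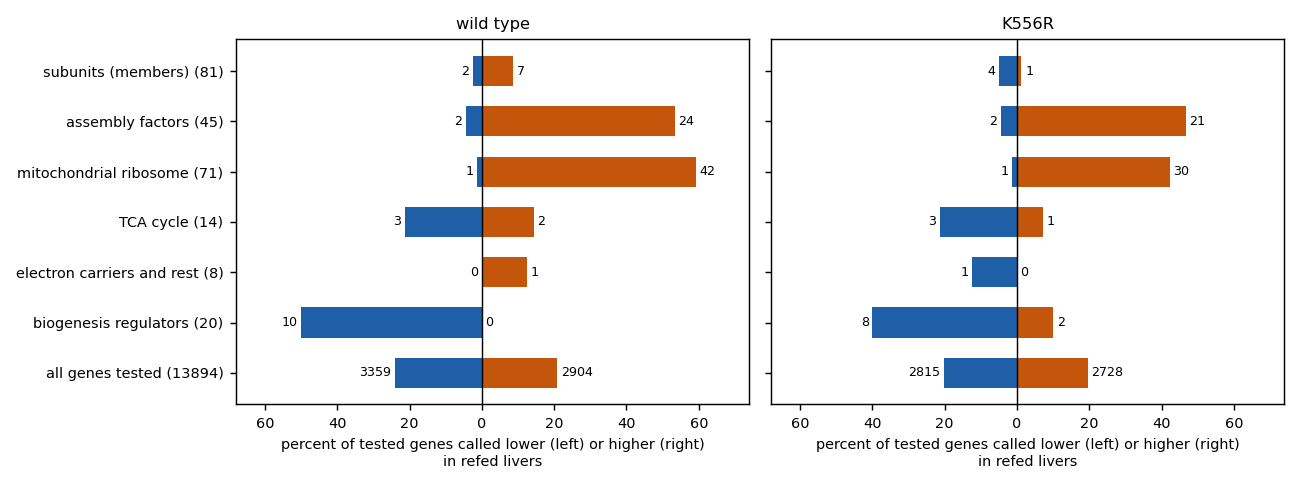
Percent of the tested genes of each list that were called lower (bars to the left) or higher (bars to the right) after refeeding, in wild type (left panel) and K556R livers (right panel); numbers are counts of genes. In wild type, 53.3% of the assembly factors, 59.2% of the mitochondrial ribosome and 8.64% of the subunits were called higher, against 20.9% of all genes.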

How the data were processed

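Messenger RNA libraries of 20 mouse livers were compared. The authors deposited raw read counts for 29915 genes in 1 table. The submitters' processing notes name the build mm10 and the tools edgeR, DESeq2, STAR-Fusion, TopHat, HTSeq and STAR. The counting tool, all versions, the annotation and the rule for shared reads were not given in the sources used. The labels' protocols describe second strands with and without strand marking and not which was used, so reads of overlapping genes on opposite strands could not be separated. How repeats relate to animals is not stated, so a p-value reflects the spread among these libraries, which may be technical.

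The quasi-likelihood F test of edgeR 4.0.16 (in R 4.3.3), with robust estimates, was run on the counts after filterByExpr (minimum count 10, minimum total 15), which kept 13894 genes, and TMM scaling. All 20 samples entered 1 model with group and batch. The Benjamini-Hochberg adjustment ran over all genes tested, with a threshold of 0.05, and no test was made over a list. The fit was also run on simulated counts with known changes in some genes. These counts held no batch effect and no libraries that stand apart, so the run cannot show how either affects the calls. Alternatives were other scalings, DESeq2 1.42.0, limma 3.58.1, other filters, a fit of each batch, fits without the batch term or with a replicate block, and leaving out libraries. Scaling by library totals was chosen after the data were seen.

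Members and lists were chosen with earlier results of these data known. Named are, per complex, the 2 called members with the lowest p in each direction after refeeding, the 3 with the lowest p in each genotype comparison, the catalytic members, the paralog sets, the highest and lowest per length and those not tested. Ndufb4, Ndufab1, Ndufa10 and the genes of uneven spread were named after their values were seen. A few genes covered by the rule are not reported here. Positions and lengths are from GENCODE M21 on GRCm38, and promoters from RefSeq on GRCm38.p6.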

Additional observations from a re-analysis of the deposited data

Results flagged for a closer look

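In wild type fasted livers, library 4_b1 lay apart from the other 4 in 5 measures, by the gap to its nearest neighbour divided by the group's range (Dixon's test). Its summed level was 1282.73 CPM in complex II (the others 1210.76 to 1222 CPM), 1324.49 CPM in complex III (1183.4 to 1221.11 CPM) and 5055.75 CPM in complex V (4448.87 to 4594.8 CPM). Ndufa10 was at 124.981 CPM there (111.359 to 114.022 CPM) and Sdhd at 255.774 CPM (223.842 to 232.946 CPM). As shares of the counts before TMM scaling, this library was not high: complex II took 0.114% (the other 4 libraries 0.117% to 0.123%), complex III 0.118% (0.116% to 0.120%), complex V 0.4496% (0.4348% to 0.4508%) and all members 1.125% (1.107% to 1.134%). These are 5 of 64 groups examined, and chance flags about 1 in 20 groups; the measures share members and the library.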

How the results depend on the processing

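The count of members called higher in refed wild type livers (7) became 12 with RLE scaling, 31 with upper-quartile scaling and 48 with library totals. It was 13 with DESeq2, 18 with limma, 14 with the stricter filter and 2 in batch 1 alone. It was 11 without the 2 libraries that stand apart, and 3 to 24 with 1 library left out. Of all 13894 genes, 2904 were called higher under TMM, 3067 with RLE scaling, 3645 with upper-quartile scaling and 3973 with library totals. The share called higher was thus smaller for the members than for all genes under TMM and RLE scaling. With upper-quartile scaling, with library totals and without wild type fasted 4_b1, the members had the larger share in refed wild type livers. The count called lower there (2) became 1 in batch 2 alone, 4 with 3 libraries left out, 1 without the rows that are no subunits, and 2 to 3 with 1 library left out. The count called higher in K556R livers (1) became 4 with upper-quartile scaling, 24 with library totals, 2 with no batch term, 0 in each batch alone, 0 with the replicate block, 3 with 2 or 3 libraries left out, and 0 to 5 with 1 left out. The count called lower there (4) became 2 with upper-quartile scaling, 1 with library totals, 2 with no filter, 1 in batch 2 alone, 2 with the replicate block, and 2 to 5 with 1 left out. Replicate numbers are only names here, since same-numbered libraries did not all deviate together (correlations from -0.37 to 0.68); with the replicate block 5 members were called higher in wild type. Counts in the genotype comparisons and the interaction were 0 in all alternatives. In batch 2 alone, with 1 library in 3 of the 4 groups, the fasted genotype difference of Ndufc2 reversed to -0.091 (adjusted p = 0.840) and the mean one of Ndufb3 to 0.017 (adjusted p = 0.946), both uncalled. Beyond the alternatives' own construction, the cause of these changes was not tested. The counts of 1 to 7 called members rest in part on changes near the threshold. The wild-type calls of Ndufa8, Atp5g1, Cox7a2l and Atp5sl were kept in all 20 fits that leave out 1 library. Those of Ndufa10, Ndufab1, Ndufb10, Ndufb4 and Sdhd were lost in some of them. Members under 1 CPM (Cox6b2, Ndufa4l2) rest on few counts.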
